A study of Homo sapiens with 6 samples.

Results

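The RAB27 family is described here as 10 genes of the 23346 in the count table: the small GTPases RAB27A and RAB27B, and the 8 effectors EXPH5, SYTL1, SYTL2, SYTL3, SYTL4, SYTL5, MYRIP and MLPH. The genes were found in the table by their symbols. The family was chosen by the rise of EXPH5 in the comparison of BNC2 siRNA with control siRNA, so the values of EXPH5 in that comparison are given as a description, without a test. The other 9 genes were taken because they belong to the same family, with earlier results of these data known. RNA was sequenced from BT549 cells, an established mesenchymal-like breast cancer cell line labelled wild type (WT), grown in RPMI with FCS and transfected with 20 nM of siRNA, and the RNA was prepared 6 d later. Cells received either negative control (NC) siRNA or siRNA against the zinc finger protein BNC2, with 3 libraries in each group. The BNC2 siRNA was a mix of 3 siRNAs, so the effects of the single siRNAs cannot be told apart, and the values stand for 1 cell line. The libraries of a group are biological replicates according to the methods, and p-values measure the spread between these libraries.

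RAB27 proteins sit on the membrane of secretory vesicles, melanosomes and multivesicular endosomes and switch between a GTP-bound and a GDP-bound form. In the GTP-bound form they recruit effectors, which tie the vesicle to a myosin motor (the Slac2 proteins MLPH and MYRIP) or to the plasma membrane (the synaptotagmin-like SYTL proteins), before docking and fusion. EXPH5 is the third Slac2 protein and shares their RAB27-binding domain. RAB27A and RAB27B are known for the release of exosomes from cancer cells, and among the effectors SYTL4 and EXPH5 have been tied to that release in HeLa cells. Loss of EXPH5 in people causes a form of skin fragility, and loss of RAB27A or MLPH causes pigment dilution.

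The libraries held between 16093978 and 18246254 counts in genes, and 12186 genes passed the filter of over 1 CPM (counts scaled to library size) in 3 or more of the 6 libraries. BNC2, the targeted gene, had 65.6, 51.5 and 58.6 CPM with NC siRNA and 35.5, 36.6 and 41.6 CPM with BNC2 siRNA. In the edgeR fit its level with BNC2 siRNA was 64.6% of that with NC siRNA (log2 ratio -0.63, SE 0.09, adjusted p = 8.2e-06). The p-value is from edgeR's quasi-likelihood test with Benjamini-Hochberg adjustment, the test used throughout. The log2 ratio sets BNC2 siRNA over NC siRNA and SE is its standard error. The log2 CPM values of libraries of a group correlated at 0.993 to 0.995 across genes. Of the genes tested, 72.9% were called at an adjusted p of at most 0.05, with 36.6% up and 36.2% down, and the libraries of the groups did not overlap in 74.9%. Of the 8 mesenchymal markers, 7 were tested and PDGFRB had at most 1 count in any library. The list, mostly VIM, had 4202 to 4288 CPM in sum with NC siRNA and 5070 to 5308 CPM with BNC2 siRNA. Of the 7, 6 were called up and 1 down, the transcription factor ZEB2 (98.8 CPM with NC siRNA and 42.5 CPM with BNC2 siRNA, log2 ratio -1.22). The epithelial markers EPCAM and ESRP1 were at 0 in all 6 libraries, and CDH1 had 1 count in 1 of them.

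The promoters of the 3 effectors with the largest log2 ratios, up or down, among those past the filter are shown, to allow their composition to be compared. Each sequence is the 250 bases before the annotated start of the gene's main (MANE Select) transcript, read 5′ to 3′ on the gene's strand. The sequences come from the RefSeq promoter table (GRCh38.p14) and were placed on GRCh37 by an exact match. Capitals mark the motifs searched on both strands: the E-box CACCTG, the AP-1 site TGACTCA in which the middle base may also be G, the GC box GGGCGG and the TATA box TATAAA. No 2 of these motifs overlap in the sequences shown.
EXPH5, chr11:108464496-108464745, minus strand: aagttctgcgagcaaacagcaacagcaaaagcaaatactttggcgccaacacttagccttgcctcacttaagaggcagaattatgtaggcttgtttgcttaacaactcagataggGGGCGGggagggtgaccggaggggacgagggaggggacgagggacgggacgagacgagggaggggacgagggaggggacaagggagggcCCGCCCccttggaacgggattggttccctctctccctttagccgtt
MLPH, chr2:238395644-238395893, plus strand: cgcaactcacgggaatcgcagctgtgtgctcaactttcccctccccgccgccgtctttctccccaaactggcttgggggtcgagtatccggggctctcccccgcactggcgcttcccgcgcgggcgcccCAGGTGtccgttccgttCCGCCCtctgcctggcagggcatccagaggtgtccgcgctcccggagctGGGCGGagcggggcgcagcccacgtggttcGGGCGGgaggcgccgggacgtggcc
SYTL4, chrX:99987109-99987358, minus strand: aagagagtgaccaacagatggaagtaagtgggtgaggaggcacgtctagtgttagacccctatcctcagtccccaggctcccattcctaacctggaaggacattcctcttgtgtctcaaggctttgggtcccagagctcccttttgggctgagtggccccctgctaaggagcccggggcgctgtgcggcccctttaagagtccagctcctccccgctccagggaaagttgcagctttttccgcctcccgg
The EXPH5 sequence was 58.0% GC with 13 CpG sites and held 2 GC boxes, 135 and 46 bases before the start. The MLPH sequence was 72.4% GC with 29 CpG sites and held an E-box at 121 bases and GC boxes at 104, 55 and 25 bases before the start. The SYTL4 sequence was 58.8% GC with 7 CpG sites and held none of these letters. Over 35116 promoter windows of this length, the median GC content was 58.0% and the median number of CpG sites 11, and 42.6% held the GC box, 17.5% the E-box, 10.7% the TATA box and 4.2% the AP-1 site. A match is a description of the letters only, and the gene counts do not show which start was in use. Windows before other annotated starts differed: another of SYTL4 was 70.8% GC and held 3 GC boxes. Another window of EXPH5 held 2 E-boxes and yet another an AP-1 site, while the other of MLPH held none of the motifs. The windows counted over all genes include such other starts. The MLPH sequence lies within the gene, since other transcripts start further upstream, and the SYTL4 sequence reaches 2 bases into an exon of another SYTL4 transcript.

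EXPH5 (Slac2-b) lies on chromosome 11, at chr11:108376162-108464495 on the minus strand of GRCh37, and its main transcript has 6 exons and 10304 bases. It had 8, 5 and 4 counts with NC siRNA and 106, 106 and 127 with BNC2 siRNA. In CPM these were 0.451, 0.280 and 0.241 against 6.16, 5.98 and 8.09. EXPH5 was thus close to the limit of detection in every control library, where 3 counts correspond to 0.168 to 0.181 CPM, and the groups lay far apart. The means were 0.324 CPM ± 0.112 (SD, n = 3) and 6.74 CPM ± 1.17 (SD, n = 3). The edgeR fit gave a log2 ratio of 4.34 (SE 0.27), or 20.2-fold, ranked 6 by size among the rises of the 12186 genes tested. EXPH5 passed the filter only through the BNC2 siRNA libraries. All but 1 of its reads came from the counted strand. In RNA from a whole culture, a gene expressed in more cells and one expressed more strongly per cell cannot be told apart.

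**Figure D1:**
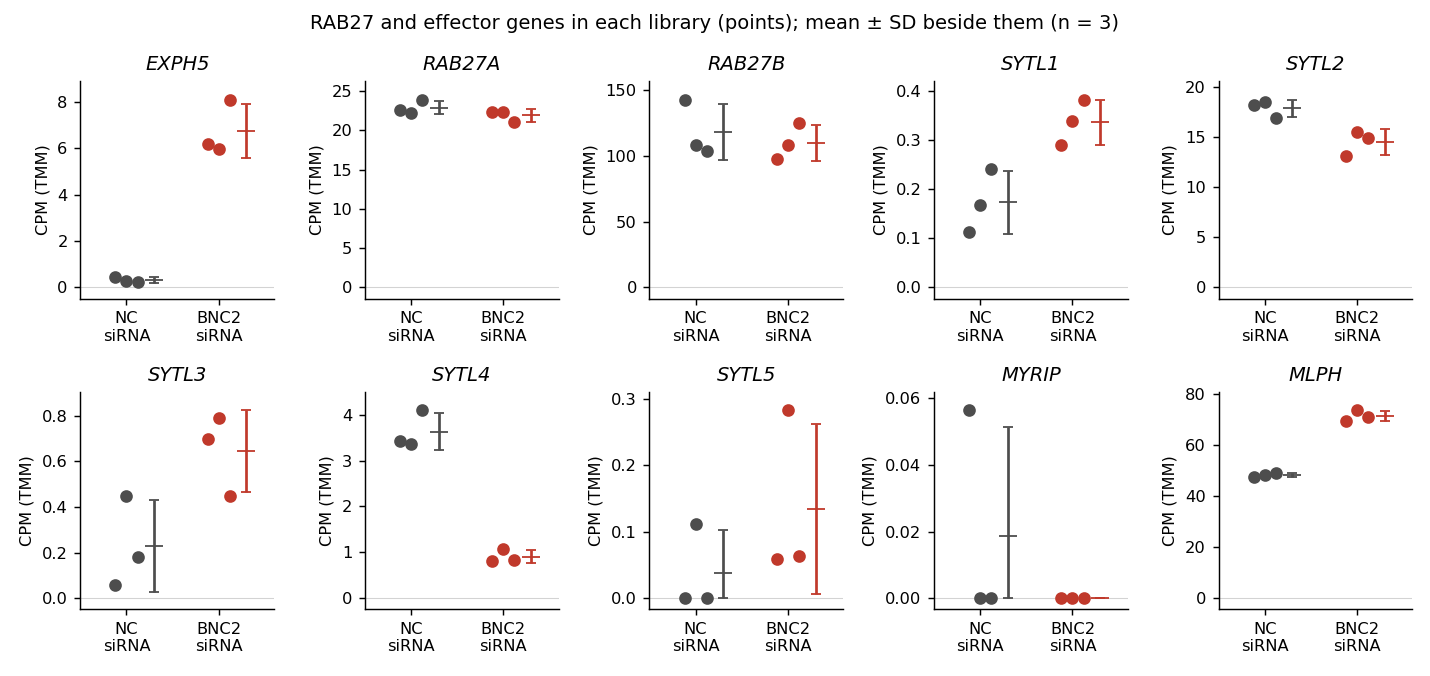
CPM (counts scaled to library size with TMM) of the 10 genes in each library, with 1 panel and 1 y axis per gene. Points are single libraries of NC siRNA (grey) or BNC2 siRNA (red), and the bar beside them is the mean ± SD (n = 3), stopped at 0. EXPH5 goes from 0.324 to 6.74 CPM on average, SYTL4 from 3.63 to 0.905 CPM, and the RAB27A and RAB27B points of the groups overlap.

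The rise of EXPH5 was not accompanied by a rise of keratinocyte markers, the cell type in which the gene is best known. The 8 markers of that list had 22.8 to 25.0 CPM in sum with NC siRNA and 19.0 to 21.5 CPM with BNC2 siRNA, mostly KRT10, with KRT1 and DSG3 at 0 in all libraries. TP63, a transcription factor of basal keratinocytes, had 2.14, 2.13 and 3.19 CPM with NC siRNA and 0.931, 0.677 and 0.573 CPM with BNC2 siRNA, and passed the filter only through the control libraries. The luminal epithelial markers summed to 9.39 to 12.2 CPM with NC siRNA and 3.61 to 3.95 CPM with BNC2 siRNA. Of the 3 tested genes, GATA3 was not called (log2 ratio -0.28, adjusted p = 0.195). KRT18 and FOXA1 were called down but passed the filter only through the control libraries, which fixed their direction. Of the epithelial markers, 5 of 10 had at most 3 counts in every library.

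The genes on both sides of EXPH5 moved far less. KDELC2, 7029 bases away, had means of 84.4 CPM ± 5.16 and 95.7 CPM ± 6.71 (SD, n = 3 each) with NC and BNC2 siRNA. It was called up (log2 ratio 0.18, SE 0.07, adjusted p = 0.0253), but the libraries of the groups overlapped and the call was lost with scaling by total counts only (log2 ratio 0.11). It was also lost without NC siRNA library 2 (0.14) or without BNC2 siRNA library 2 (0.13) or 3 (0.17). With same-numbered libraries paired in a replicate block, the KDELC2 call was lost too (0.18, adjusted p = 0.0669). DDX10, a helicase gene 71289 bases away on the other side, was down, from 160 CPM ± 16.6 to 121 CPM ± 9.05 (SD, n = 3 each; log2 ratio -0.41, SE 0.07, adjusted p = 0.00011).

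RAB27A and RAB27B, the GTPases that the effectors bind, were not called. RAB27A (chr15:55495164-55611311, minus strand, GRCh37) had 22.6, 22.2 and 23.9 CPM with NC siRNA and 22.4, 22.3 and 21.0 CPM with BNC2 siRNA. The groups overlapped, with a log2 ratio of -0.06 (95% interval -0.24 to 0.11, adjusted p = 0.51). RAB27B (chr18:52385091-52562747, plus strand, GRCh37) had 142.7, 108.4 and 104.0 CPM with NC siRNA against 97.7, 108.0 and 124.7 CPM with BNC2 siRNA. The first control library was the highest of all 6, the groups overlapped, and the log2 ratio was -0.11 (95% interval -0.33 to 0.11, adjusted p = 0.37). Without that library the RAB27B value was 0.05, on the other side of 0. The intervals leave out changes as large as those of MLPH or SYTL4 for both genes.

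MLPH (melanophilin, or Slac2-a), which joins RAB27A on melanosomes to myosin Va, was up-regulated. It lies at chr2:238394071-238463965 on the plus strand of GRCh37. Its counts were 845, 860 and 812 with NC siRNA and 1194, 1302 and 1116 with BNC2 siRNA, which is 47.6, 48.2 and 48.9 CPM against 69.4, 73.5 and 71.1 CPM. The 3 BNC2 siRNA libraries lay above every control library, and the spread within a group was small. The fold change in the fit was 1.48 (log2 ratio 0.56, SE 0.06, adjusted p = 4.7e-07). MLPH is also highly expressed in luminal breast cells, whose markers had the sums given above, and their part in the result was not tested. Of the melanocyte markers, the 1 tested gene, MITF, rose (log2 ratio 0.57, SE 0.10, adjusted p = 6.5e-05), while SOX10, TYR and MLANA were at 0 in all libraries. TYRP1, PMEL and DCT had between 0 and 9 counts in a library, with overlapping groups, and were not tested. On one side of MLPH, 71099 bases away, the collagen gene COL6A3 was up by 1.82 on the log2 scale (SE 0.16, adjusted p = 2.2e-08), from 3.09 CPM ± 0.597 to 11 CPM ± 1.08 (SD, n = 3 each). RAB17, 18999 bases away on the other side, had 2, 3 and 0 counts with NC siRNA and none with BNC2 siRNA.

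SYTL4 (granuphilin), which docks insulin granules in pancreatic beta cells, was the effector with the strongest fall. It lies at chrX:99926780-99987110 on the minus strand of GRCh37. Its counts were 61, 60 and 68 with NC siRNA and 14, 19 and 13 with BNC2 siRNA, and the CPM values were 3.44, 3.36 and 4.09 against 0.814, 1.07 and 0.828. All BNC2 siRNA libraries were below all control libraries, and the level was 3.97-fold lower in the edgeR fit (log2 ratio -1.99, SE 0.23, adjusted p = 9.8e-07). SYTL4 passed the filter only through the control libraries. Without the filter its log2 ratio was -1.96 (adjusted p = 2.5e-13). The opposite strand of SYTL4 held 4, 4 and 4 reads with NC siRNA and 8, 15 and 11 with BNC2 siRNA. SRPX2, a secreted protein gene that overlaps SYTL4 on that strand, was up (1.02 CPM ± 0.180 to 2.55 CPM ± 0.272, SD, n = 3 each; log2 ratio 1.32, SE 0.25, adjusted p = 0.00014). It passed the filter only through the BNC2 siRNA libraries, and without the filter its log2 ratio was 1.35 (adjusted p = 3.3e-06). With reads of both strands counted, the log2 ratio of SYTL4 was -1.28, still called, and the part of SRPX2 in that value was not tested.

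SYTL2 (Slp2-a), which links RAB27A to the plasma membrane through its C2 domains, was modestly lower. It is at chr11:85405267-85522202 on the minus strand of GRCh37. It had 18.1, 18.5 and 16.9 CPM with NC siRNA and 13.1, 15.5 and 14.8 CPM with BNC2 siRNA, without overlap. The log2 ratio was -0.30 (SE 0.10, adjusted p = 0.0117). This call rested on the first BNC2 siRNA library, since without it the value was -0.23 with an adjusted p of 0.0636. SYTL2's neighbours were PICALM, with a log2 ratio of 0.0046 (adjusted p = 0.957), and CCDC89, with at most 3 counts in every library.

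The other 4 effectors did not pass the filter. SYTL1 (JFC1; chr1:27668511-27680428, plus strand, GRCh37 here and below) had 2, 3 and 4 counts with NC siRNA and 5, 6 and 6 with BNC2 siRNA, so the groups did not overlap, but at this depth the ratio of the summed levels was 1.95 with a 95% counting interval of 0.821 to 4.96. SYTL1 also had 39.5% of its reads on the opposite strand, against 1.90% over all genes. Most of these came from NC siRNA library 2, with 10 reads, against 1 or 2 in each other library. SYTL3 (chr6:159071046-159185908, plus strand) had 1, 8 and 3 counts against 12, 14 and 7, which overlap, with a ratio of 2.84 (95% counting interval 1.43 to 6.03). Without the filter, when 53.3% of 18121 genes were called, SYTL3 was called up (log2 ratio 1.5, adjusted p = 0.0232). SYTL5 (chrX:37865806-37988072, plus strand) had 0, 2 and 0 counts with NC siRNA and 1, 5 and 1 with BNC2 siRNA. MYRIP (Slac2-c; chr3:39850405-40301812, plus strand), which joins RAB27A to myosin VIIa, had 1 count in 1 control library and none in the other 5, and was not detectable at this depth.

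Of the 10 genes, 6 were tested. Of the 5 tested besides EXPH5, 1 was called up (MLPH), 2 were called down (SYTL4 and SYTL2) and 2 were not called (RAB27A and RAB27B). Over all genes tested the shares were 36.6% up and 36.2% down, so these counts do not set the family apart. EXPH5 chose the family and SYTL4 passed the filter only through the controls, so no median over the tested genes is given. The summed level of the 10 genes was 198 to 235 CPM with NC siRNA and 211 to 241 CPM with BNC2 siRNA, which overlap.

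**Figure D2:**
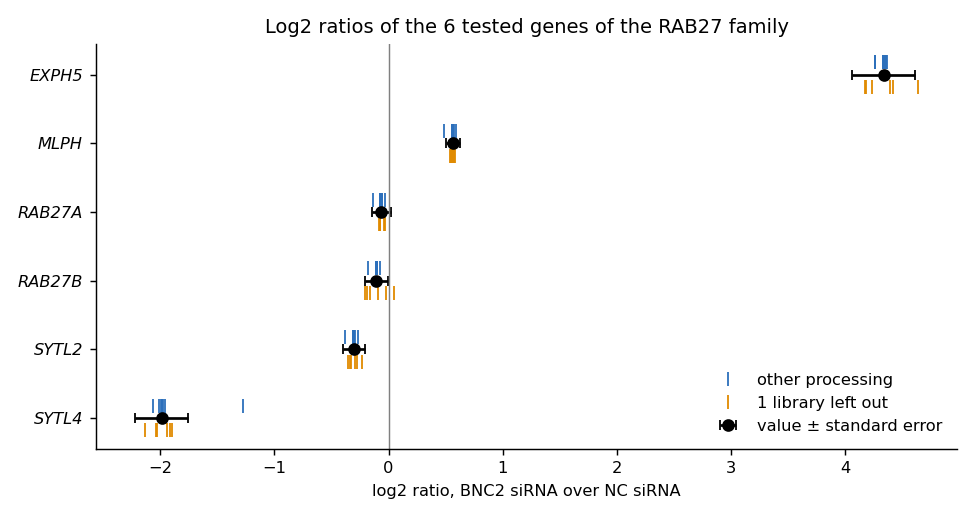
Log2 ratio (x axis, BNC2 siRNA over NC siRNA) of the 6 tested genes of the family, with bars of ± 1 SE. Blue ticks above a point are other processing settings and orange ticks below it leave out 1 library each. EXPH5 (4.34, chosen by this value and not tested) and MLPH (0.56) lie above 0, RAB27A and RAB27B lie next to 0, and SYTL2 (-0.30) and SYTL4 (-1.99) lie below it.

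Levels were compared between genes per kilobase of the main transcript. Gene counts do not show which transcripts the cells used, so the order between genes depends on these lengths. Without the division by length, RAB27B (110 CPM) was above MLPH (71.3 CPM) with BNC2 siRNA. With NC siRNA the order was RAB27B (16.9 CPM per kb ± 3.03), MLPH (12.9 ± 0.172), RAB27A (6.65 ± 0.254), SYTL2 (2.16 ± 0.104) and SYTL4 (0.908 ± 0.101; SD, n = 3 for each), and these neighbours did not overlap. SYTL1, SYTL3, EXPH5, SYTL5 and MYRIP followed, all below 0.1 CPM per kb on average and each overlapping with the next. With BNC2 siRNA, MLPH was the highest (19.0 ± 0.539), above RAB27B (15.7 ± 1.95), RAB27A (6.36 ± 0.227) and SYTL2 (1.75 ± 0.152). EXPH5 stood in place 5, at 0.654 CPM per kb ± 0.113, having been in place 8 with NC siRNA. SYTL4 and SYTL3, both at 0.226 CPM per kb, and SYTL1 at 0.174 CPM per kb came after it. SYTL3 overlapped with both SYTL4 and SYTL1, which did not overlap with each other.

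**Figure D3:**
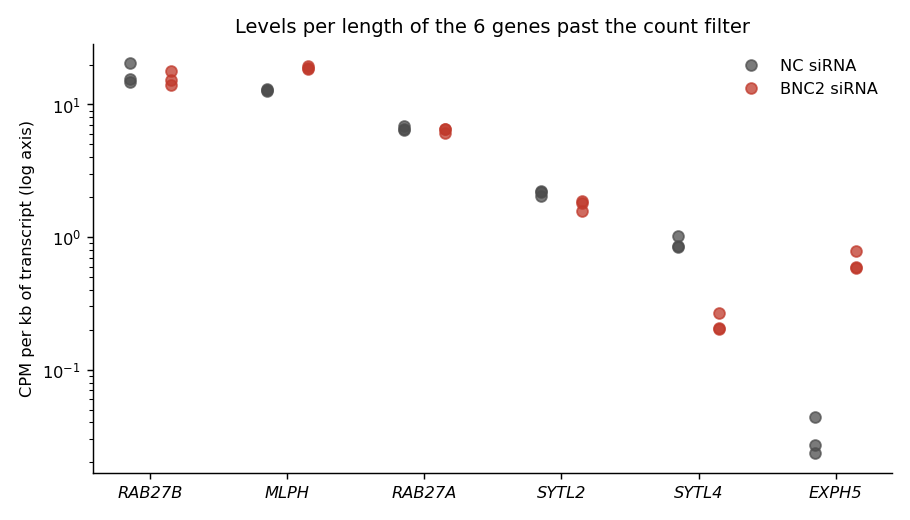
Levels of the 6 genes past the count filter per kilobase of transcript, in CPM per kb on a log axis, for single libraries of NC siRNA (grey) and BNC2 siRNA (red). EXPH5 rises from 0.0314 to 0.654 CPM per kb on average and SYTL4 falls from 0.908 to 0.226 CPM per kb, while MLPH, RAB27B and RAB27A stay the most abundant.

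As a share of the summed level of the 8 effectors per kilobase, MLPH made up 79.2% to 80.0% with NC siRNA and 85.7% to 86.9% with BNC2 siRNA. The share of SYTL2 was 12.5% to 13.8% with NC siRNA and 7.42% to 8.21% with BNC2 siRNA. That of SYTL4 was 5.18% to 6.27% and then 0.935% to 1.17%. EXPH5 took 0.143% to 0.275% with NC siRNA and 2.54% to 3.55% with BNC2 siRNA, so even after its rise it was a small part of the effector mRNA, above SYTL4 and below SYTL2.

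The genes whose pattern over the 6 libraries was closest to that of EXPH5 were taken by the root mean square difference of their log2 CPM values, computed with a prior count of 1 and after subtraction of the control mean. They were SEMA7A (0.315), COL12A1 (0.374), PDZD2 (0.388), COL5A1 (0.414) and TNC (0.486), in log2 units. SEMA7A, a membrane-anchored semaphorin, went from 6.18 CPM ± 0.357 to 100.6 CPM ± 4.46, and TNC, the matrix protein tenascin C, from 62.4 CPM ± 4.59 to 741 CPM ± 10.4 (SD, n = 3 each). COL12A1 and COL5A1 encode fibril-associated and fibrillar collagen chains. PDZD2 had 2, 1 and 1 counts with NC siRNA and 52, 63 and 54 with BNC2 siRNA, and passed the filter only through the BNC2 siRNA libraries. Its log2 ratio was 5.32. With reads of both strands counted, the log2 ratio of PDZD2 was 1.47, and that of EXPH5 was 4.26. Since the search used these same libraries, the likeness is a description.

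**Figure D4:**
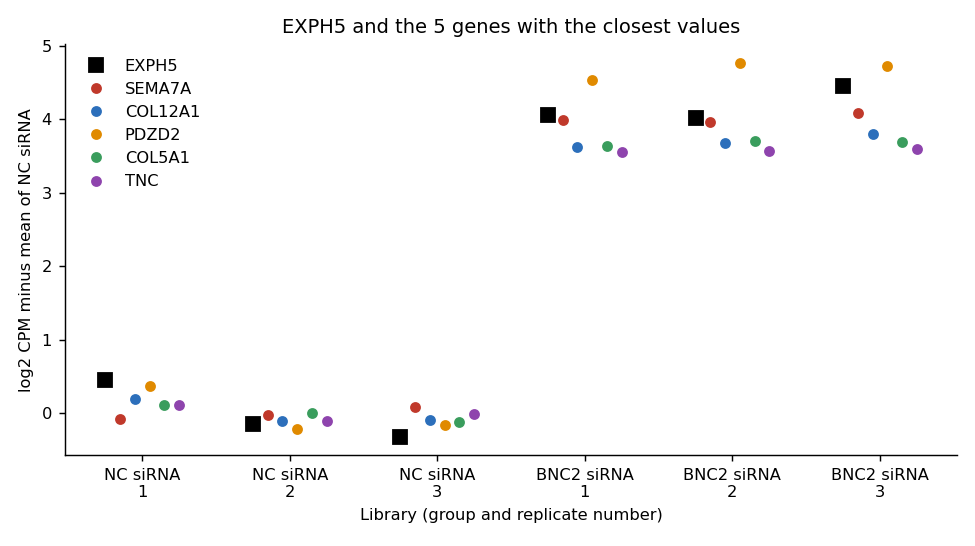
Log2 CPM relative to the mean of the NC siRNA libraries for EXPH5 and the 5 genes with the closest pattern, in each of the 6 libraries (x axis). The NC siRNA libraries lie around 0 and the BNC2 siRNA libraries between 3.55 (TNC) and 4.77 (PDZD2), with root mean square differences from EXPH5 of 0.315 (SEMA7A) to 0.486 (TNC).

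Beside the family, 77 genes of RAB27 regulation and of vesicle traffic more widely were read from the same fit, in 6 lists. The lists also hold related RABs, RAB3-type effectors and general traffic genes, so their shares are not those of RAB27 partners alone. Of these, 64 were tested, of which 15 (23.4%) were called up and 31 (48.4%) down, with a median log2 ratio of -0.16. The shares of all genes tested were 36.6% up and 36.2% down. They also apply beside the counts of each list below, and no list was tested against them.

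The first list holds the factors that load, unload and lipid-modify RAB27. Of 10 tested, 4 were up, 2 down and 4 not called (median log2 ratio 0.15). MADD, the exchange factor that activates RAB27, was slightly up (log2 ratio 0.35, SE 0.07, adjusted p = 0.00023). TBC1D10B, a GTPase-activating protein that turns RAB proteins off, rose by 0.63 (SE 0.07, adjusted p = 4.3e-07), and the escort protein CHML by 0.59 (SE 0.09, adjusted p = 1.8e-05). RABIF, a chaperone of secretory RAB proteins, fell by 1.46 (SE 0.08, adjusted p = 1.1e-10), from 44 to 16.0 CPM. The prenyltransferase subunit RABGGTB fell by 0.18 on the log2 scale and was called. The RABGGTB call was lost without BNC2 siRNA library 1 (log2 ratio -0.15, adjusted p = 0.0561) and without the filter on low counts (-0.15, adjusted p = 0.0519).

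Among motors and actin nucleators, 3 of 7 tested genes were up, 2 down and 2 not called (median 0.11). MYO5A, the motor that MLPH binds, rose from 133 CPM ± 9.0 to 186 CPM ± 9.02 (SD, n = 3 each; log2 ratio 0.49, SE 0.06, adjusted p = 2.7e-06). FMN1, a formin that assembles actin filaments, rose from 12.8 to 50.7 CPM (log2 ratio 1.98, SE 0.11, adjusted p = 5.7e-11). MYO7A, the motor that MYRIP binds, had 11, 8 and 2 counts with NC siRNA and 28, 26 and 39 with BNC2 siRNA, and was called up (log2 ratio 2.18, adjusted p = 0.00012). MYO5C, a myosin of secretory epithelia, fell from 2.44 to 0.780 CPM (log2 ratio -1.66), and CORO1C, an actin-binding coronin, fell by 0.53, both called. MYO7A passed the filter only through the BNC2 siRNA libraries and MYO5C only through the control libraries, and both are among the genes counted for this list. Without the filter the log2 ratios were 2.21 for MYO7A (adjusted p = 2e-08) and -1.63 for MYO5C (adjusted p = 1.9e-07).

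Of the docking and fusion factors, 3 of 12 tested were up, 7 down and 2 not called (median -0.40). UNC13B, which primes vesicles for fusion, rose by 1.12 on the log2 scale (SE 0.08, adjusted p = 3.5e-09), and the SNARE genes STX4 and VAMP3 by 0.53 and 0.24. SYT7, a calcium sensor of lysosome and vesicle fusion, fell from 2.69 CPM ± 0.322 to 0.509 CPM ± 0.267 (SD, n = 3 each; log2 ratio -2.38, SE 0.31, adjusted p = 3.4e-06). SYT7, which is among the 7 counted as down, passed the filter only through the control libraries, and without the filter its log2 ratio was -2.35 (adjusted p = 1.1e-12). The SNARE genes STX1A and SNAP29 fell by 1.14 and 0.71, both called.

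Of the related secretory RABs and RAB3-type effectors, 2 of 11 tested were up, 6 down and 3 not called (median -0.16). RIMS2, a RAB3 effector of the release site, rose from 49.8 to 125.9 CPM (log2 ratio 1.34, SE 0.06, adjusted p = 1.2e-11), and RAB3B by 0.33. RAB32, which works in melanosome formation, fell from 32.9 to 8.54 CPM (log2 ratio -1.94, SE 0.10, adjusted p = 6.2e-11). RAB8B and RAB8A fell by 1.03 and 0.58, both called.

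Of the multivesicular endosome and exosome genes, 1 of 16 tested was up, 9 were down and 6 not called (median -0.18), against 36.6% up and 36.2% down over all genes, and the difference was not tested. CD9, a tetraspanin used as an exosome marker, fell from 184 CPM ± 22.7 to 28.6 CPM ± 1.59 (SD, n = 3 each; log2 ratio -2.69, SE 0.09, adjusted p = 1.4e-13). SDCBP (syntenin), which sorts cargo into exosomes, fell from 370.0 to 119 CPM (log2 ratio -1.64, SE 0.06, adjusted p = 4.6e-13), and the GTPase gene RALB fell by 1.16. CTTN (cortactin), an actin regulator, was the gene that rose (log2 ratio 0.88, SE 0.05, adjusted p = 2.2e-10). The summed level of the list was 2503 to 2589 CPM with NC siRNA and 1936 to 1991 CPM with BNC2 siRNA.

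Of the genes for biogenesis of lysosome-related organelles, the class to which melanosomes belong, 2 of 8 were up, 5 down and 1 not called (median -0.25). HPS4 and the AP-3 adaptor subunit AP3B1 rose by 0.76 and 0.54. DTNBP1 (dysbindin) fell by 0.87, LYST by 0.57 and HPS1 by 0.34, with adjusted p-values between 6.7e-08 and 0.004.

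**Figure D5:**
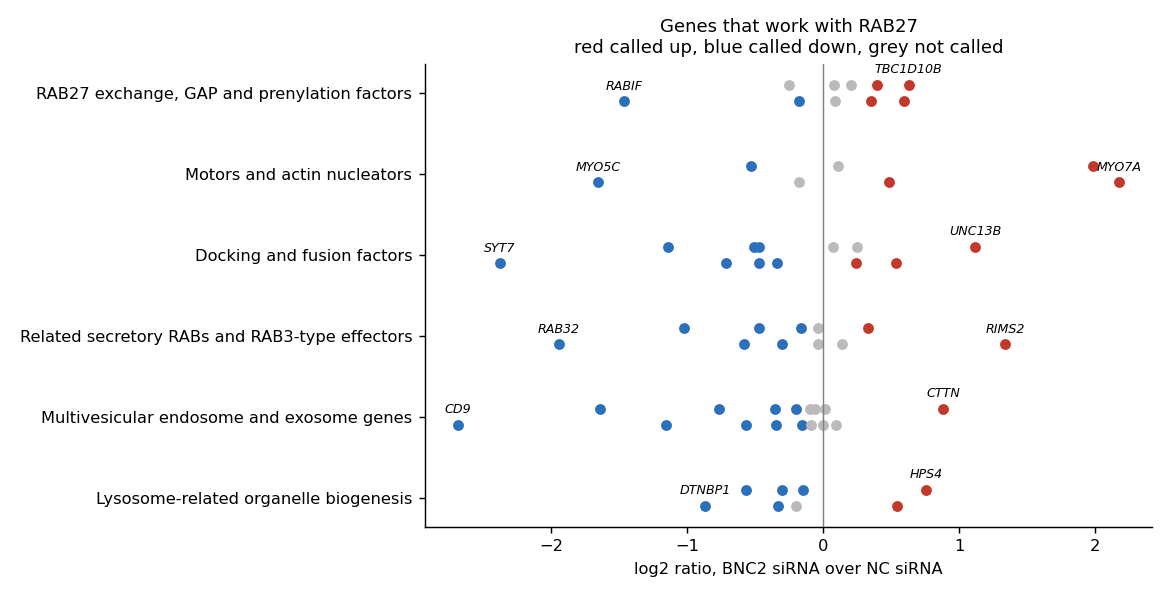
Log2 ratios (x axis, BNC2 siRNA over NC siRNA) of the 64 tested genes of the 6 lists, 1 row of points per list. Red points were called up, blue points called down and grey points not called, and the gene called with the largest rise and the largest fall is named in each list. The lowest point is CD9 at -2.69 and the highest MYO7A at 2.18.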

How the data were processed

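The authors isolated poly(A) RNA from 6 BT549 samples, sequenced single-end reads and aligned them with STAR 2.6.1d to hg19 with the iGenomes UCSC annotation. They deposited raw gene counts as a series table and as a table per library. The series table equals the reverse-strand column of the library tables. Reads assigned to no gene (37.7% to 41.1% of a library) were left out.

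Groups came from the sample labels. Counts were analysed in edgeR 4.0.16 (R 4.3.3), which kept genes over 1 CPM in 3 or more of the 6 libraries, scaled by TMM and compared the groups with the quasi-likelihood test without a replicate block, calling genes at a Benjamini-Hochberg adjusted p of at most 0.05. CPM are given after TMM. The smallest two-sided p of an exact permutation test on 3 and 3 libraries is 0.1. Standard errors are the log2 fold change divided by the square root of F, and counting intervals are exact 95% intervals of the ratio of summed counts, which cover counting error only. The script was tested on simulated data. The settings varied were edgeR's likelihood ratio test (used by the study), DESeq2 1.42.0, other scalings and filters, a replicate block, both strands and leaving out each library.

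The family and all lists were chosen with earlier results of these data known. All 10 genes are named, with neighbours of the called effectors and, per list, up to 3 called genes with the largest rise and 3 with the largest fall; MADD was named for its role after its values had been seen. The result of 1 single gene is not reported here. Positions and transcript lengths come from GENCODE 44 on GRCh37, in which 92.0% of the 23346 symbols were matched. Of the 10 genes, 9 have a promoter sequence in the RefSeq table.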

Additional observations from a re-analysis of the deposited data

Results flagged for a closer look

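The reads on the opposite strand of SYTL4 were not used in the comparison of the groups and were singled out because they were more numerous with BNC2 siRNA. They summed to 34 over the BNC2 siRNA libraries (8, 15 and 11) and to 12 over the NC siRNA libraries (4, 4 and 4), while the counted strand of SYTL4 fell. Such reads made up 16.4% of the reads of SYTL4, against 1.90% over all genes. SRPX2, which overlaps SYTL4 on that strand, was called up (log2 ratio 1.32), and whether these reads belong to it was not tested.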

How the results depend on the processing

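EXPH5 had a log2 fold change of 4.26 to 4.37 under other tests, scalings, filters and strands, and 4.18 to 4.64 when single libraries were left out. With a replicate block, which the labels do not tie to a shared day or batch and for which same-numbered libraries did not deviate together (correlations of -0.193, -0.078 and -0.125), EXPH5 was at 4.33 and 8400 genes were called in place of 8879. The KDELC2 call was lost with the block (0.18, adjusted p = 0.0669). Besides EXPH5, 1 gene of the family was called up and 2 without the filter, when SYTL3 was added. The number called down was 1 to 2 when single libraries were left out, with SYTL2 lost. RAB27B ranged from -0.21 to 0.046 and PICALM from -0.043 to 0.096 when single libraries were left out. PICALM was also at -0.0032 with DESeq2, -0.0032 with DESeq2's size factors and -0.072 with total counts only. Of 658 other fits of 47 single genes, 641 kept their direction and their side of the threshold, 8 lost a call (5 of them of KDELC2), 1 gained one (CSTF2 with total counts only) and 8 changed sign. Genes under 1 CPM are limited by depth, as 3 counts are 0.168 to 0.191 CPM.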
